A study of Saccharomyces cerevisiae with 2 samples.

Results

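The ATG genes of budding yeast encode the core machinery of autophagy, and their mRNA 3' ends are described here in 1 strain of *Saccharomyces cerevisiae*. Members were all open reading frames (ORFs) with a standard name made of ATG and a number, in the deposited tables of both replicates. The rule found 31 ORFs among 5798, and used no measured value. Both libraries came from strain JZY65, genotype delta rpb4, in which the RPB4 reading frame has been removed. RPB4 encodes part of the stalk of RNA polymerase II. Cells were grown in YPD, a rich medium, at 30 °C to mid-log phase, and total RNA was profiled by 3' READS, in which a read marks the nucleotide where a poly(A) tail was attached. The 2 libraries are biological replicates of 1 group. A strain with intact RPB4 is not analysed here, and no value stands for an effect of the deletion. The labels do not say whether the replicates came from separate colonies.

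In autophagy, a double membrane grows around cytoplasm or organelles, closes into an autophagosome and fuses with the vacuole, where its contents are degraded. The Atg1 kinase complex starts the process and Atg9 vesicles supply membrane. A phosphatidylinositol 3-kinase complex marks the site, and a pair of ubiquitin-like systems attach Atg8 to the membrane lipid phosphatidylethanolamine. Yeast cells induce bulk autophagy when starved. In rich medium part of the machinery works in the cytoplasm-to-vacuole targeting (Cvt) pathway, which carries hydrolases such as Ape1 to the vacuole.

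Over all ORFs, the windows of 400 nt downstream contained 27374989 (replicate 1) and 24905308 (replicate 2) reads. A gene was used where both replicates had 100 window reads or more. This filter kept 29 of the 31 ATG genes and 85.2% of all ORFs, which left 4939 ORFs. RPB4 itself had 0 reads inside its ORF in both libraries, which allows a share of up to 0.0669% in replicate 1 and 0.0738% in replicate 2 of its ORF and window reads. Its window after the deleted sequence held 4486 and 4066 reads. Reads are PCR products without molecular identifiers, so all intervals and limits cover counting error only.

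Most ATG genes had fewer window reads than the typical ORF. Over the 29 genes used, the median was 479 window reads in replicate 1 and 367 in replicate 2, against 1402 and 1366 over all ORFs used. By the mean of both replicates, 23 of 29 lay below the median of all ORFs used, where 50% lie by construction. Window reads count 3' ends of mRNA, so transcription and mRNA stability are not separated in them.

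ATG21 and ATG11 stood apart. ATG21 (YPL100W, chromosome XVI, 361872 to 363362, plus strand), a phosphoinositide-binding protein needed in the Cvt pathway, had 10089 reads in replicate 1 and 8764 in replicate 2. ATG11 (YPR049C, chromosome XVI, 661137 to 664673, minus strand), the scaffold that links cargo receptors to the Atg1 kinase, had 9484 and 8118 reads. Together they held 54.6% of the ATG window reads in replicate 1 and 54.0% in replicate 2. ATG21, the most read ATG gene, ranked 533 among all ORFs used. ATG22, a vacuolar membrane protein that exports amino acids, followed at a distance with 1742 and 1974 reads.

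**Figure D1:**
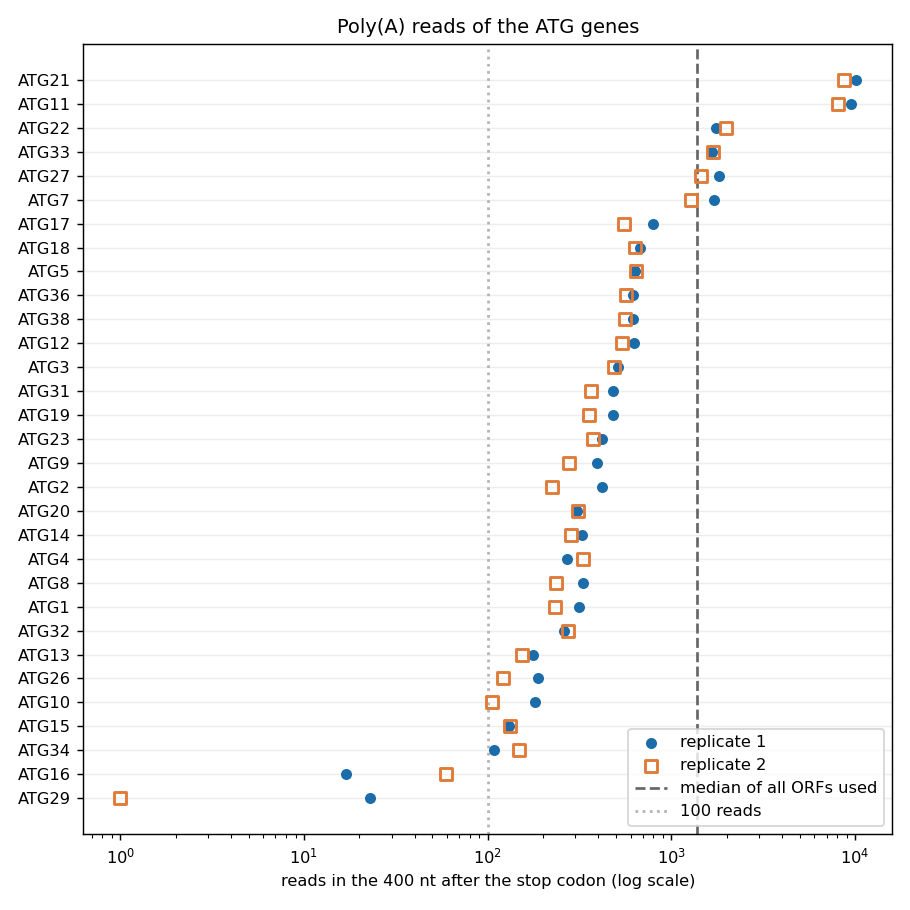
Window reads of the 31 ATG genes in each replicate on a logarithmic axis, ordered by their mean, with the minimum of 100 reads and the median of all ORFs used as lines. ATG21 and ATG11 lie above all others in both replicates, and 23 of the 29 genes used lie below the median line.

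Next by the mean came ATG33, a factor in mitophagy, with 1661 and 1695 reads, then ATG27, an Atg9 trafficking protein, with 1819 and 1443, and ATG7, the E1-like enzyme of both conjugation systems, with 1716 and 1280. These 6 genes were the ones above the all-ORF median. At the low end of the genes used, ATG34, a receptor for the vacuolar hydrolase Ams1, had 108 and 149 reads. ATG15, the vacuolar lipase that breaks down autophagic bodies, had 130 and 132, and ATG10, the E2-like enzyme for Atg12, had 180 and 106. The kinase gene ATG1 had 315 and 234 reads, and ATG9, which encodes the transmembrane protein of the membrane-supplying vesicles, had 393 and 277. ATG8, the ubiquitin-like protein that coats the growing membrane, had 330 and 236. ATG1, ATG9 and ATG8 thus had fewer than 400 reads in either library.

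ATG16 and ATG29 were too rarely read to place an end. ATG16, the partner of the Atg12-Atg5 conjugate, had 17 reads in replicate 1 and 59 in replicate 2. ATG29, a subunit of the Atg17 scaffold, had 23 reads and 1 read. Its other scaffold partners were read more often: ATG17 had 799 and 556 reads, and ATG31 had 484 and 367.

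The mean endpoint is the read-weighted mean distance in nt from the ORF end to the poly(A) position within the window. It is thus an average 3' UTR length, and in a gene with separate sites it can lie where few reads end. The median over the 29 ATG genes was 105.9 nt (replicate medians 110.2 and 106.7 nt), against 122.8 nt over all ORFs used (replicate medians 122.3 and 123.6 nt). The ATG mean endpoints ran between 57.2 and 355.8 nt. In all, 12 of 29 lay beyond the all-ORF median, where 50% lie by construction. At the long end, 5 of 29 lay beyond 300 nt, against 2.83% of all ORFs used, and these were ATG38, ATG1, ATG13, ATG12 and ATG3.

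In the Atg1 complex and its scaffolds, 3 of the 5 genes used had ends beyond the all-ORF median. ATG1 (YGL180W, chromosome VII, 160065 to 162758, plus strand) ended on average at 328.7 nt in replicate 1 and 333.6 nt in replicate 2, a mean of 331.1 ± 3.46 nt (SD, n = 2). ATG13, the regulatory subunit that responds to TORC1 signalling, ended at 325.7 and 328.5 nt, and ATG17, the scaffold of starvation-induced autophagy, at 222.8 and 224.3 nt. ATG11, which serves selective autophagy, ended at 84.8 and 84.7 nt, and ATG31 at 110.2 and 101.6 nt. Within this complex the ends of ATG1 and ATG13 were more than 200 nt further out than those of ATG11 and ATG31 in both replicates.

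The receptor and adaptor genes had a median endpoint of 107.8 nt over 6 genes, near the 105.9 nt of all 29 ATG genes used. Of the 6, 2 lay beyond the all-ORF median. ATG34 had a mean endpoint of 88.5 ± 0.15 nt and its paralog ATG19, the receptor for Ape1, 102.7 ± 0.64 nt (SD, n = 2 each). ATG20, a sorting nexin placed in this group, had 104.3 ± 2.57 nt and ATG33 111.2 ± 0.49 nt. The organelle receptors stood further out. ATG32, the mitophagy receptor, had 202.1 ± 1.73 nt and ATG36, the pexophagy receptor, 177.2 ± 7.02 nt.

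**Figure D2:**
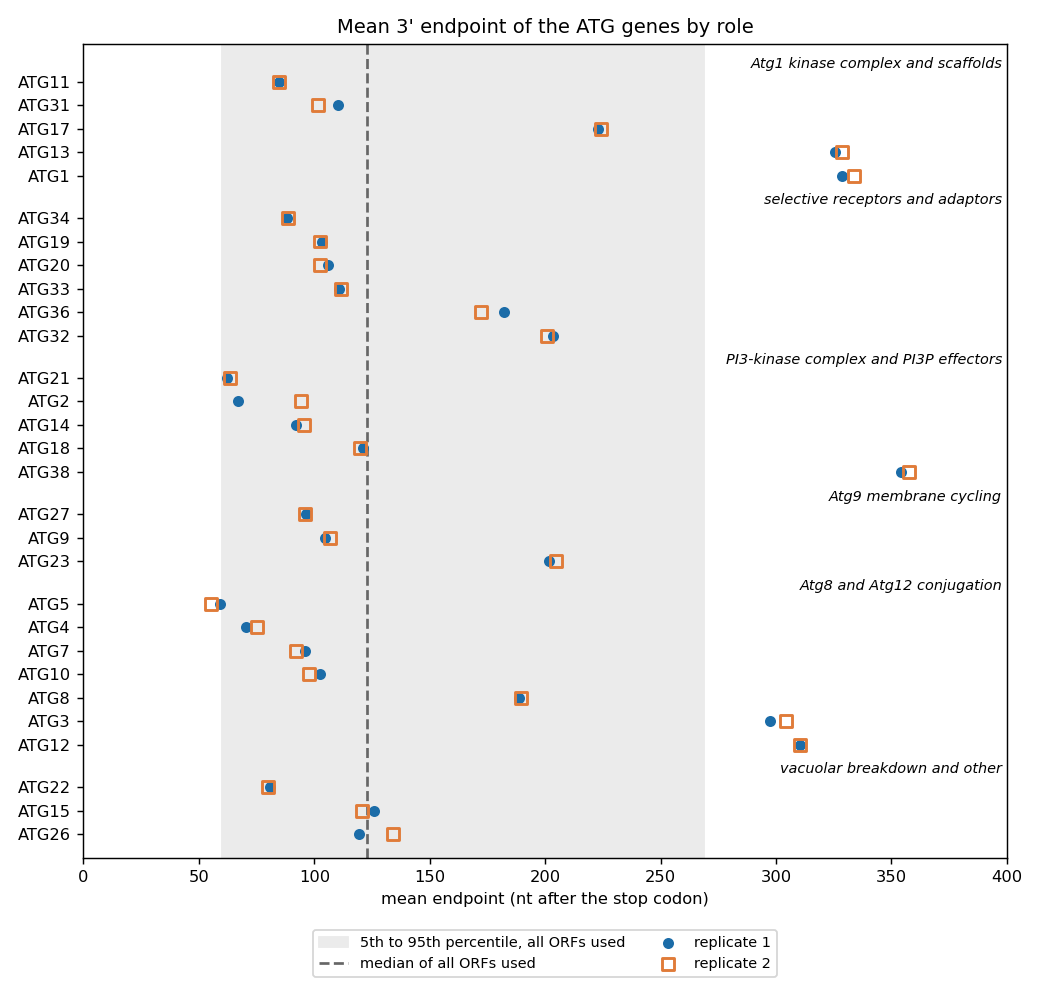
Mean endpoint in nt after the ORF end for the 29 ATG genes used, grouped by role, with a filled and an open symbol for the 2 replicates a line at the median of all ORFs used and a band from their 5th to 95th percentile. ATG38, ATG1, ATG13, ATG12 and ATG3 lie at about 300 nt or beyond, and ATG2 shows the widest gap between replicates.

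Among the phosphatidylinositol 3-kinase subunits and lipid effectors, the shortest and longest ends differed by nearly 300 nt. ATG21 had a mean endpoint of 62.9 ± 0.97 nt, and its relative ATG18, a phosphoinositide-binding partner of Atg2, had 120.5 ± 0.92 nt (SD, n = 2 each). Of the ATG18 reads, 7.11% in replicate 1 and 6.61% in replicate 2 lay beyond 300 nt. The median positions of ATG18 were 95 and 100 nt. ATG14, the autophagy-specific subunit of the kinase complex, had 93.9 ± 2.35 nt. ATG2, a lipid transfer protein, had 80.6 ± 19.4 nt, the largest SD of the 29 genes. ATG38 (YLR211C, chromosome XII, 563792 to 564531, minus strand), which stabilises the same complex as Atg14, had the longest mean endpoint, 354.1 nt in replicate 1 and 357.5 nt in replicate 2. Since the window stops at 400 nt, the ends of ATG38, ATG1 and ATG13 could extend beyond what was measured.

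Of the genes for Atg9 cycling, ATG9 ended on average at 104.4 nt in replicate 1 and 106.7 nt in replicate 2. ATG27 had a mean endpoint of 96.3 ± 0.35 nt and ATG23, a peripheral membrane partner of Atg9, 203.1 ± 2.27 nt (SD, n = 2 each). In this group ATG23 was the one gene beyond the all-ORF median.

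The conjugation genes split into short and long ends. ATG5, which accepts Atg12, had the shortest mean endpoint of the 29 genes, 59.2 nt in replicate 1 and 55.3 nt in replicate 2. ATG4, the protease that processes Atg8, ended at 70.5 and 75.3 nt. ATG7 had 94.1 ± 2.93 nt and ATG10 100.2 ± 3.34 nt (SD, n = 2 each). ATG8 (YBL078C, chromosome II, 80378 to 80731, minus strand) ended at 188.5 and 189.6 nt. ATG12, the second ubiquitin-like protein, ended at 310.5 and 310.2 nt. ATG3, the E2-like enzyme for Atg8, ended at 297.6 and 304.5 nt, so it passed 300 nt in the mean of the replicates and in 1 of the 2. Both ubiquitin-like proteins and the E2-like enzyme of Atg8 thus had longer ends than the other 4 conjugation genes used. The last group held ATG22 at 80.2 ± 0.64 nt, ATG15 at 123.4 ± 3.60 nt and ATG26 at 126.8 ± 10.5 nt (SD, n = 2 each). For ATG15 this mean lay between a group of positions at 16 to 19 nt and a larger one at 167 to 174 nt. ATG26 encodes a sterol glucosyltransferase that acts in pexophagy in the yeast *Komagataella phaffii*.

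Many ATG transcripts ended inside a gene on the opposite strand. The downstream neighbour was an ORF facing the ATG gene and starting within the 400 nt window in 16 of 29 cases, against 44.2% of all ORFs used. In 7 of these 16, over 50% of the window reads lay inside the facing ORF in both replicates, against 22.6% of the 2183 ORFs used with such a neighbour. The reads of these genes inside the facing ORF lie antisense to its coding sequence. The call was chosen after the values had been seen.

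All reads of ATG22 lay beyond the end of GID7, a ubiquitin ligase subunit whose ORF ends 58 nt away (100% in both replicates). ATG31 ended inside FAL1, 68 nt away, with 98.6% of its reads in replicate 1 and 95.9% in replicate 2. ATG17 ended inside YLR422W, 221 nt away, with 93.0% and 93.9%, and ATG13 inside PZF1, the gene of transcription factor TFIIIA 298 nt away, with 81.8% and 83.8%. Lower shares were found for ATG11 in TAH18 at 83 nt (67.7% and 69.2%), ATG20 in YDL114W at 102 nt (68.8% and 53.1%) and ATG12 in the pyruvate carboxylase gene PYC2 at 314 nt (59.2% and 54.7%). For ATG17 and ATG11 the most used position, 223 and 85, lay 2 nt past the boundary, so most of their reads were at the edge of the facing ORF. These 7 neighbours stood between 58 and 314 nt away, so both short and long 3' UTRs were among them.

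The other 9 kept most reads short of the facing ORF. ATG36 had 36.1% and 39.8% of its reads inside MNN5, while ATG9, ATG27, ATG21, ATG2 and ATG10 had below 1% inside theirs in both replicates. Strand assignment was checked over 12566 positions with at least 10 reads that lie in the windows of both genes of 1018 facing pairs. At 10 of these the same read count, within 2%, stood on both strands. Such a check shows equal counts only, so a smaller share of reads on the wrong strand would pass unseen. In 3 of 29 genes, ATG14, ATG15 and ATG4, the window overlaps a feature on the same strand (23.8% of all ORFs used). Nearly all of their reads lay before that feature. ATG14 had 0 of 327 reads inside VMA2, which starts 258 nt away, in replicate 1 and 4 of 283 in replicate 2. ATG4 had 0 of 271 and 10 of 332 inside SSU72 at 239 nt, and ATG15 had 0 in both replicates inside CPR4 at 278 nt.

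**Figure D3:**
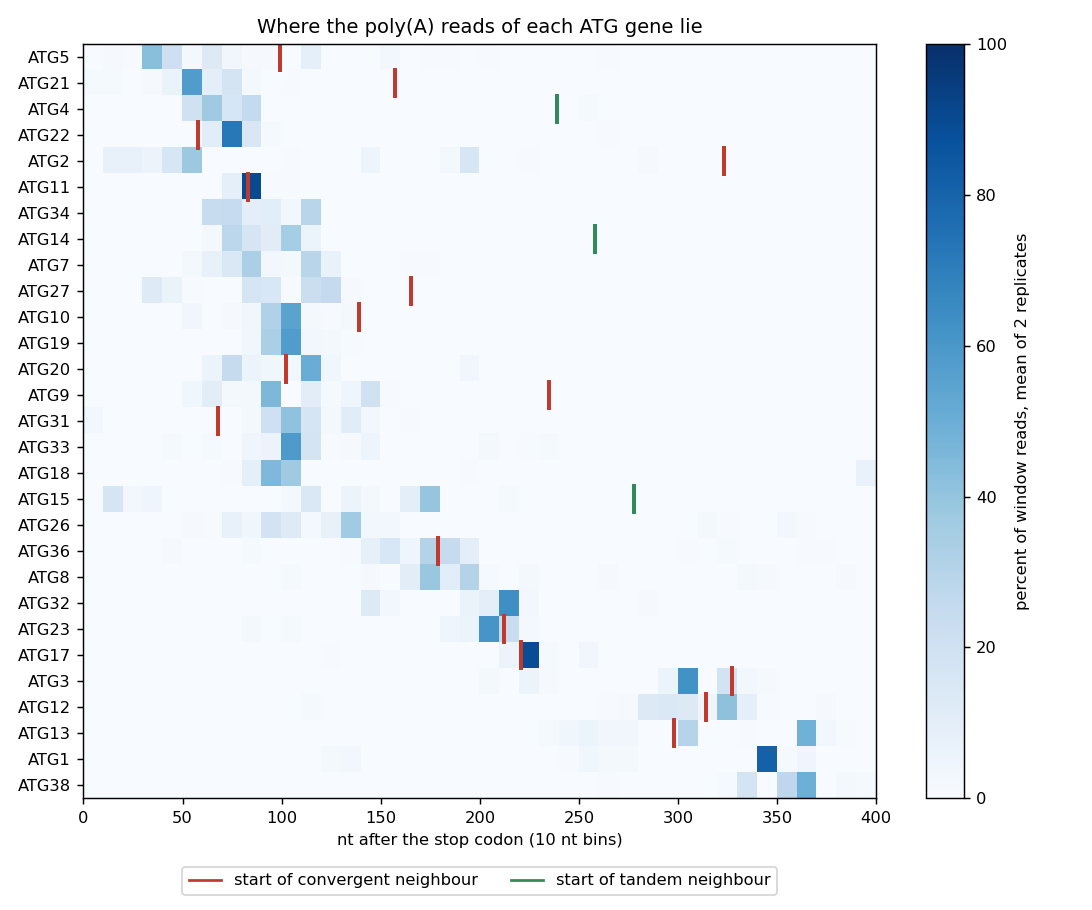
Share of window reads in 10 nt bins after the ORF end for the 29 ATG genes used, as the mean of both replicates, with a red mark where a facing neighbour ORF starts and a green mark for a neighbour on the same strand. Reads of ATG22, ATG31 and ATG17 lie almost wholly beyond the red mark, and those of ATG1 and ATG38 fall mainly in narrow bands around 350 and 363 nt.

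The number of poly(A) positions differed widely between ATG genes. The effective number is the count of equally used positions that would have the same Shannon entropy as the profile. Its median over ATG genes was 8.03, against 8.46 over all ORFs used, and 13 of 29 lay above the all-ORF median (50% by construction). ATG17 and ATG1 had the narrowest profiles. ATG17 (YLR423C, chromosome XII, 971917 to 973170, minus strand) had 81.2% of its reads at position 223 in replicate 1 and 84.7% in replicate 2, with an effective number of 2.18 ± 0.24. ATG1 had 79.4% and 82.1% of its reads at position 350 and an effective number of 2.52 ± 0.40 (SD, n = 2 each).

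In both replicates 3 of 29 genes, ATG1, ATG17 and ATG21, had over 50% of reads at the most used position, against 16.4% of all ORFs used. ATG21 had 50.5% and 50.7% at position 60. In replicate 1 alone ATG10 and ATG19 also passed, so the count was 5 without replicate 2. Counting reads within 5 nt of the most used position gave 11 of 29 genes, against 2149 of 4939 ORFs used. ATG10, with 53.9% at position 102 in replicate 1 and 49.1% in replicate 2, had an effective number of 4.18 ± 0.54 (SD, n = 2).

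The broadest profiles were those of ATG2 with an effective number of 14.9 ± 0.52, ATG36 with 13.6 ± 1.17 and ATG12 with 12.6 ± 0.67 (SD, n = 2 each). The most used position held 15.9% and 15.6% of the reads of ATG2, 19.6% and 17.5% of those of ATG4, and 20.9% and 19.9% of those of ATG8. In ATG8 these positions lay close together: positions 164 to 197 held 86.1% of the reads in replicate 1 and 93.6% in replicate 2. The positions of ATG2 fell into 3 separate groups in each replicate.

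To count separate sites, positions with at least 1% of reads were joined where they lay less than 10 nt apart, and clusters with at least 10% of reads were counted. In both replicates 13 of 29 genes had 2 or more such clusters, against 47.5% of all ORFs used. ATG13 had 3 in each replicate, with 51.7% and 50.6% of reads in the one from position 361 and 29.0% and 31.8% at position 307. ATG38 had a main cluster at positions 354 to 368 with 78.2% and 76.0%, and a smaller one ending at position 339 with 19.3% and 15.3%. ATG32 had its main cluster around position 215 and a smaller one from position 144 with 13.8% and 17.9%. Joining over 20 nt left 5 of 29 genes with 2 or more clusters, against 1419 of 4939 ORFs used.

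The replicates placed most ends alike. The most used position was the same nucleotide in 20 of 29 ATG genes, against 83.8% of all ORFs used, and within 5 nt in 25 of 29, against 87.6%. The 4 others were ATG2, ATG26, ATG34 and ATG36. The median difference of mean endpoint between replicates was 3.22 nt for ATG genes and 2.03 nt for all ORFs used. The difference exceeded 5 nt in 6 of 29 genes, ATG2, ATG26, ATG36, ATG31, ATG3 and ATG15, against 24.0%. In 12 of 29 genes it exceeded 2 standard errors (SE) of counting error alone, and the share of all ORFs used is not given here. ATG genes have fewer reads than most ORFs, and the part of read depth in these differences was not tested.

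ATG2 (YNL242W, chromosome XIV, 191324 to 196102, plus strand) differed most between replicates. Position 55 had 67 reads of 420 in replicate 1 and 4 of 224 in replicate 2, while position 198 had 10 and 35. The cluster near position 50 held 60.7% of reads in replicate 1 and 46.0% in replicate 2, and the cluster at 187 to 198 held 10.5% and 25.4%. The mean endpoints of 66.8 nt (replicate 1) and 94.3 nt (replicate 2) differed by 27.5 nt, with a counting SE of 5.73 nt. The median position of the ATG2 reads was 53 nt in both replicates, so the difference is one of the mean and not of the median.

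**Figure D4:**
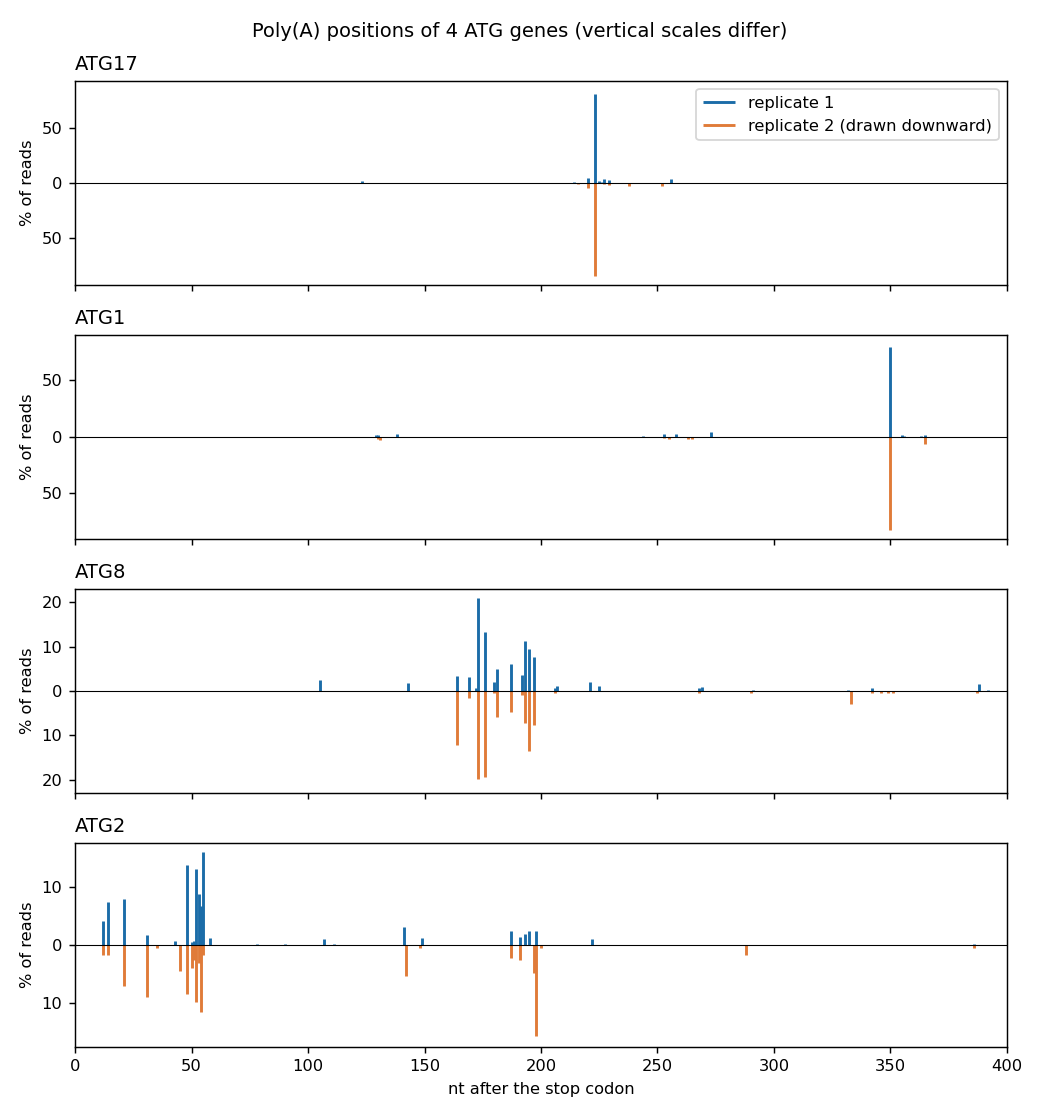
Reads at each position after the ORF end for ATG17, ATG1, ATG8 and ATG2, as a percentage of the window reads, with replicate 1 upward and replicate 2 downward. ATG17 and ATG1 have 1 dominant position at 223 and 350 nt, ATG8 a group of positions from 164 to 197 nt, and ATG2 groups whose shares differ between replicates.

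ATG26 differed by 14.9 nt between replicates with a counting SE of 6.48 nt, and its most used position was 98 in replicate 1 and 131 in replicate 2. ATG36 differed by 9.93 nt with a counting SE of 2.22 nt, with most used positions of 173 and 189 that belong to the same cluster. At the other end, ATG11 differed by 0.0711 nt, ATG34 by 0.212 nt and ATG12 by 0.317 nt. ATG34 had its most used position at 112 in replicate 1 and 76 in replicate 2. In replicate 1 position 112 had 23 reads, position 68 had 22 and position 76 had 18, so few reads decided which one led.

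ATG genes also had reads inside their coding sequence. Pooled over genes, reads inside the ORF made up 5.20% of ATG ORF and window reads in replicate 1 and 6.14% in replicate 2. The pooled share was 2.08% and 2.12% for all ORFs. ATG26 alone gave 535 of the 1964 inside reads of ATG genes in replicate 1 and 458 of 2044 in replicate 2. By gene, the median inside share was 2.82% over the ATG genes used and 1.19% over all ORFs used. The share passed 5% in both replicates in 12 of 29 genes, against 22.1% of all ORFs used. With a minimum of 500 reads this count was 2 of 12 ATG genes, against 614 of 3808 ORFs. This minimum counts window reads only, so it also removes genes whose reads lie mostly inside the ORF, such as ATG26. It therefore cannot show whether the higher ATG count depends on read depth. How far reads inside the ORF mark poly(A) tails attached there was not tested.

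ATG26 (YLR189C, chromosome XII, 530797 to 534393, minus strand) had more reads inside its ORF than after it, with 535 inside and 188 in the window in replicate 1, and 458 inside and 121 in the window in replicate 2. The inside share was 74.0% in replicate 1 (Wilson 95% interval 70.7 to 77.1%) and 79.1% in replicate 2 (75.6 to 82.2%). These reads lay at 36 positions in replicate 1 and 38 in replicate 2 along 3597 nt. ATG10 followed with 77 and 106 reads inside, 30.0% (24.7 to 35.8%) and 50% (43.3 to 56.7%). ATG2 had 188 and 119, or 30.9% (27.4 to 34.7%) and 34.7% (29.8 to 39.9%). In all 3 genes the intervals lay far above 5% in both replicates.

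**Figure D5:**
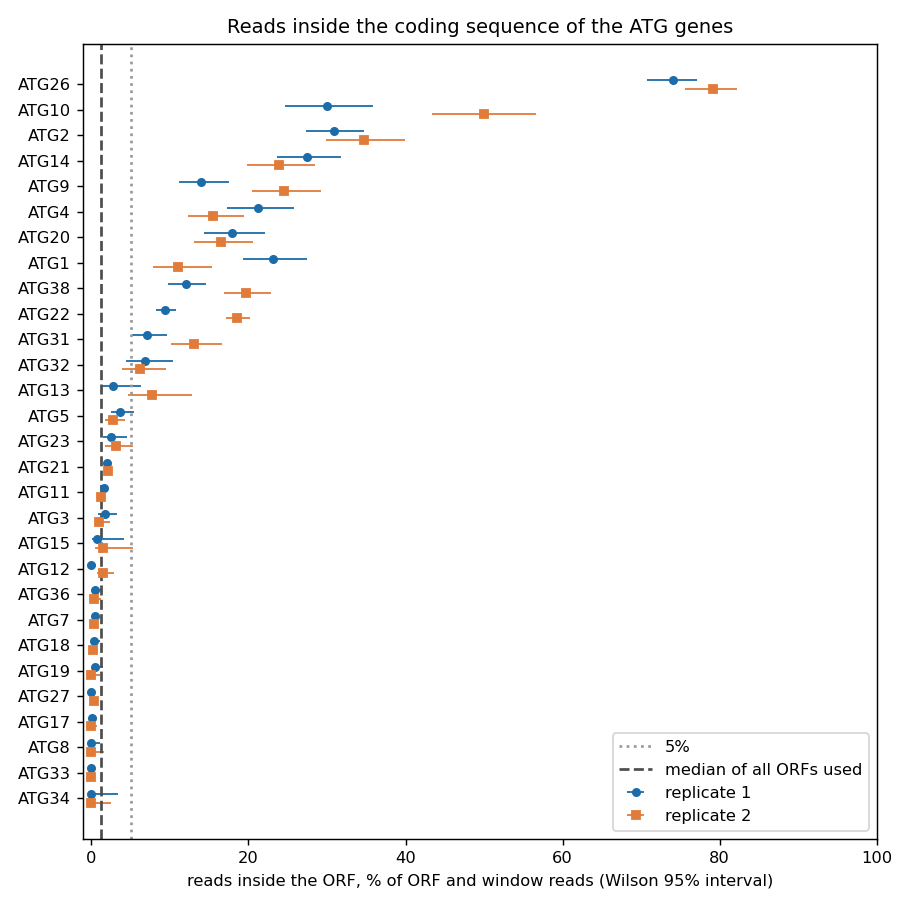
Reads inside the ORF as a percentage of ORF and window reads for the 29 ATG genes used in each replicate, with Wilson 95% intervals and lines at 5% and at the median of all ORFs used. ATG26 lies above 70% in both replicates, and ATG8, ATG33 and ATG34 are at 0.

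The other 9 genes above 5% were ATG1, ATG4, ATG9, ATG14, ATG20, ATG22, ATG31, ATG32 and ATG38. ATG1 had 23.2% in replicate 1 and 11.03% in replicate 2, and ATG9 had 14.0% and 24.5%. For ATG32, with 6.81% and 6.19%, the intervals of both replicates reached below 5%. In 5 of the 12, the window of an upstream gene on the same strand reaches into the ORF, so that reads of the upstream gene may be among those counted: OPY1 before ATG14, RPC53 before ATG9, a valine tRNA gene before ATG31, TUB4 before ATG38 and SLA2 before ATG2. The other 7, ATG26 and ATG10 among them, had no such neighbour. Outside the 12, ATG7, ATG8, ATG21 and ATG34 also had one, so such a neighbour does not set the 12 apart. Its share over all ORFs used is not given here. ATG8 had 0 of 330 reads inside in replicate 1 and 0 of 236 in replicate 2, which allows a share of up to 0.909% and 1.27%. ATG33 and ATG34 also had 0 in both libraries.

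Genes that work with the ATG proteins were taken from a list of signalling, phosphatidylinositol 3-kinase, sorting nexin, membrane fusion, vacuole and Cvt cargo genes. The list includes VPS30 and SNX4, which are also named ATG6 and ATG24. Of 35 listed names, 33 were found as standard names, and 28 of these genes were used. Their median endpoint was 125.3 nt, and 15 of 28 lay beyond the all-ORF median, where 50% lie by construction. LST8, a TORC1 and TORC2 subunit, had the longest mean endpoint at 275.3 ± 4.67 nt, ahead of TCO89, a TORC1 subunit, at 231.1 ± 6.74 nt, and NVJ1, which tethers nucleus and vacuole, at 190.5 ± 0.55 nt (SD, n = 2 each). The shortest were VAC8, a vacuole membrane protein of the Cvt pathway, at 62.7 ± 0.02 nt, TAP42, a phosphatase regulator under TORC1, at 67.9 ± 0.57 nt, and TOR2, the TORC2 kinase, at 77.8 ± 2.25 nt (SD, n = 2 each). None of the 28 had a mean endpoint beyond 300 nt, against 2.83% of all ORFs used.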

How the data were processed

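The 2 libraries of 1 group were made by 3' READS. Bowtie is the aligner per the submitters' processing notes, with version, settings and genome build not given in the sources used here. Coordinates are the files' own, and those of all 31 ATG genes equal RefSeq assembly R64. The deposited tables hold, per the file headers, a signal inside each feature and over 400 nt after it, percent values of a gene's own reads, and every position's reads scaled to 100 at the highest. The values show that the deposited signal is reads times 1 factor per library, 0.858 in replicate 1 and 0.940 in replicate 2. Whole reads were recovered by division, and 99.998% and 99.995% of positions lay within 0.1 of a whole number in genes with at most 2000 reads at the highest position. A deposited table of both replicates pooled was not used.

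Endpoints, most used positions, effective numbers, clusters and shares were computed from recovered reads, and the recomputed endpoints of ATG genes differed from the deposited ones by at most 0.0306 nt. Python 3.11.15, numpy 2.4.6, pandas 2.3.3, scipy 1.17.1 and matplotlib 3.10.9 were used, and the measures were tested on simulated data. With 1 group no test between groups could be run, and lists are described by counts and medians. Members, lists and calls were chosen with earlier results of these data known. Every ATG gene is named. Those given in full are ATG1, ATG8, ATG9 and the 3 highest and 3 lowest in reads, endpoint, leading share, effective number, inside share and replicate difference, and of the partner list the 3 longest and 3 shortest ends.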

Additional observations from a re-analysis of the deposited data

How the results depend on the processing

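With 500 reads as the minimum fewer genes were tested, 12 ATG genes among 3808 ORFs. Of the 12, 4 ended beyond the all-ORF median and 5 had an effective number above the median, where 50% lie by construction. The most used position was the same in 10 of 12, against 3334 of 3808 ORFs. Over 5% of reads lay inside the ORF in 2, against 614 ORFs, and 5 had 2 or more clusters, against 1737. Of 8 with a facing ORF in the window, 4 ended mostly inside it, against 375 of 1641. The median endpoint was 111.2 nt with no minimum, 108.8 nt over positions 21 to 400, 108.6 nt without genes overlapping a same-strand feature, and 106.7 to 110.2 nt in single replicates. Without such overlaps, 9 of the 20 partner genes left lay beyond the median, against 15 of 28. Counting reads within 5 nt of the most used position gave 11 of 29 genes over 50%, against 2149 of 4939 ORFs used. Joining clusters over 20 nt left 5 of 29 genes with 2 or more, against 1419 of 4939. Apart from the number of genes tested, the causes were not tested. In single replicates, 3 to 5 genes had over 50% at the leading position, 11 ended beyond the median, 12 to 13 had a high effective number, 12 to 13 had over 5% inside the ORF, 14 to 15 had 2 or more clusters, 15 partner genes lay beyond the median and 7 genes ended mostly inside the facing ORF. Taking the median position in place of the mean moved 22 of 29 endpoints by more than the replicate SD, ATG2 by over 1.5 times (53 nt against 80.6 nt). Ending the window at 300 nt moved 9, ATG1 by over 1.5 times (209.2 nt against 331.1 nt), since its main position lies outside. No paired analysis was possible because the samples form 1 group. The search for efficiency elements was not run, since it needs a genome sequence. With 2 replicates of 1 strain, an SD is imprecise, and genes with about 100 reads have wide counting error.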

Other observations

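RefSeq R64 symbols or older names in the tables add 8 autophagy genes that the naming rule did not take, 6 by symbol and 2 by an older name, and 6 of the 8 had at least 100 window reads in each replicate. They were picked after the values of the other genes were known. ATG44 (YIL156W-B), a mitochondrial protein of mitophagy, had 14167 reads in replicate 1 and 14513 in replicate 2, more than any of the 31 ATG genes, with a mean endpoint of 89.7 ± 0.72 nt (SD, n = 2). Its window overlaps UBP7 on the same strand. VPS30, also named ATG6, the Beclin subunit of the same kinase complex as Atg14, had 199 and 229 reads and ended at 104.7 ± 0.11 nt (SD, n = 2). SNX4, also named ATG24, the sorting nexin partner of Atg20, had 1280 and 1432 reads and ended at 157.3 ± 1.43 nt (SD, n = 2).

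The receptor of endoplasmic reticulum autophagy, ATG40 (YOR152C), had 237 and 229 reads and ended at 193.0 ± 0.96 nt (SD, n = 2). ATG42 (YBR139W), a vacuolar carboxypeptidase, had 1044 and 1037 reads, of which 60.7% in replicate 1 and 67.8% in replicate 2 lay inside the facing ORF IRA1. ATG45 (YIL024C) had 104 and 150 reads and ended at 113.6 nt in replicate 1 and 98.4 nt in replicate 2. The 2 genes below the minimum were ATG39 (YLR312C), a receptor of nuclear autophagy, with 150 and 81 reads, and ATG41 (ICY2), with 95 and 94 reads.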
